A study of Penaeus vannamei with 6 samples.

Results

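In the gill transcriptome of juvenile Pacific white shrimp (Litopenaeus vannamei), 114 of 321483 assembly components were each represented by at least 10 transcript forms. A component is a group of assembled transcripts that share an ID up to the form number, and its forms are the numbered transcripts within it. Components that held a transcript of 8000 bases or more were left out, which removed 16 of 130. The 114 members held 1462 of the 341828 transcripts. They were chosen by form number and length alone, and no expression value was used directly. Both can depend on read coverage in an assembly, so the choice may not be independent of level, which was not tested. At the lower edge, 34 members had exactly 10 forms and 53 components with 9 forms were just outside. At the length edge, the longest member transcript had 7846 bases, and the lowest longest transcript among those left out had 8158 bases.

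Gill RNA was sequenced from shrimp cultured in fresh water, in brackish water and in seawater. There were 2 libraries from each of the 3 groups, 6 in all, although the design text speaks of triplicates. Whether the 2 libraries of a group represent different shrimp or a shared pool is not stated, so the spread between libraries behind the p-values may be technical. In the main test of component sums this spread was pooled over components of similar level. A component's own spread did not enter its SE or p-value there. The form IDs matched 0 entries of the RefSeq gene table for this species, so that members carry no gene name or function here, and the gill label could not be checked against markers.

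The crustacean gill is the main organ of ion exchange with the surrounding water, and its epithelium takes up salt in dilute media. In a transcriptome assembled without a genome, the forms of a component can be splice variants, alleles, copies of a gene family or alternative paths through shared sequence. The files do not tell these apart. In whole tissue, fewer cells of a type and less RNA per cell cannot be told apart either.

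Library depth, recovered from the deposited RPKM values (read numbers divided by transcript length and by library size), was 30152208 and 23195528 reads in fresh water, 37027007 and 35347475 in brackish water, and 16500257 and 33130083 in seawater. Brackish water library 2 stood apart from the others. Its scaling factor by the trimmed mean of M-values (TMM), computed from component reads, was 0.385, against 0.751 to 1.85 in the other libraries. Its median member sum was 5.43 RPKM, against 19.6 RPKM in brackish water library 1. Seawater library 1 also differed from its partner in a set of abundant members, most of which were high in brackish water library 2 as well. The labels were taken as given, and group means of those members join unlike libraries.

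The members were long and well covered. Their forms ranged from 201 to 7846 bases with a median of 1842 bases, against 259 bases over the whole series. The median longest form had 3713 bases in members, 710 bases in the components with 2 to 9 forms, and 253 bases in those with 1 form. The median level of a component, summed over its forms and averaged over the 6 libraries, was 17.6 RPKM in members, 0.969 RPKM in components with 2 to 9 forms and 0.0934 RPKM in components with 1 form. All 114 members averaged at least 1 RPKM, whereas 49.6% and 4.51% of the components with 2 to 9 forms and with 1 form did. A longest form and a sum taken over more forms tend to be larger, so part of these differences follows from the choice of members. The number of assembled forms can itself depend on coverage, and how much of the difference this makes was not tested. Form numbers ran past the number of listed forms in 113 members, up to number 130.

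Of the 1462 forms, 1227 (83.9%) had reads in all 6 libraries, against 86.0% of 23883 other transcripts of 752 to 3735 bases, the interquartile range of member lengths. The member forms were not limited to that range, so these shares are not matched in length. Only 2 forms had no read in any library. Members made up 0.428% of the transcripts and took 3.88% and 4.04% of the reads in fresh water, 3.05% and 3.25% in brackish water, and 4.23% and 4.49% in seawater. The share was highest in the seawater libraries and lowest in the brackish water libraries, and the 3 groups did not overlap. The seawater shares rest on different members, however. A set of 8 members, described below, took 45.8% of member reads in seawater library 1 and 1.25% in seawater library 2. Whether the order of the groups holds without them was not tested. These shares rest on enough reads that their 95% Wilson intervals, which cover counting error only, span a few hundredths of a percentage point.

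Levels were uneven among members. The mean sum ranged from 2.51 to 6862 RPKM, and 100 members averaged at least 5 RPKM, 23 at least 100 RPKM and 11 at least 1000 RPKM. The 3 highest members together took 27.1% and 22.9% of all member reads in fresh water, 24.1% and 43.4% in brackish water, and 37.2% and 39.2% in seawater. Those 3 were comp235490_c0, comp245246_c0 and comp246856_c0. The place of comp246856_c0 rests on seawater library 1, without which its mean was 734 RPKM and it ranked 10, behind comp249616_c0 at 2699 RPKM. The sum of comp245246_c0 was 3863 and 3876 RPKM in fresh water, 2133 and 5838 RPKM in brackish water, and 1476 and 5532 RPKM in seawater, so that its groups overlapped.

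The first comparison asked how the summed level of members differed between fresh water and seawater. Of the 114 members, 5 passed the test (4.39%), 2 higher and 3 lower in fresh water. Among all 20220 components tested, 10.4% passed, 9.18% higher and 1.17% lower. The test was limma on log2(RPKM + 1) with Benjamini-Hochberg adjustment at 0.05 over all of them, and 9 members (7.89%) had an unadjusted p under 0.05, against 30.7% of all components. The fresh water and seawater libraries did not overlap in 66 members that were higher in fresh water (57.9%, against 69.7% of components) and in 7 that were lower (6.14%, against 10.4%). The fold change was above 0 in 98 members (86.0%), against 82.5% of components. The median log2 fold change was 0.74 over the members and 1.03 over all components. After division by TMM factors it was -0.22 over the members and 0.28 over all components, so the members' direction turned with the scaling.

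The most abundant member, comp235490_c0, has 12 forms of 201 to 713 bases. Its sum was 6095 and 5371 RPKM in fresh water, 5666 and 3912 RPKM in brackish water, and 10650 and 9478 RPKM in seawater. Both seawater libraries were above the other 4. The mean was 5733 ± 512 RPKM in fresh water and 10064 ± 828 RPKM in seawater (SD, n = 2 each). The log2 fold change was -0.81 (SE 0.28, limma adjusted p = 0.0446). The fold change was -1.86 after division by TMM factors, and the call held in 3 of 18 alternatives, with adjusted p between 0.0148 and 0.867.

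In comp245295_c0, with 11 forms, the sum was 43.7 and 9.73 RPKM in fresh water, against 371 and 85.2 RPKM in seawater. The groups did not overlap, and brackish water held both extremes at 10.7 and 259 RPKM. Its log2 fold change between fresh water and seawater was -3.03 (SE 0.91, limma adjusted p = 0.0204). The call held in 5 of 18 alternatives, with adjusted p between 0.012 and 0.867. The scarce comp245440_c0, with 14 forms, had 0.477 and 0.0611 RPKM in fresh water, against 2.38 and 11.9 RPKM in seawater. That rested on 12 and 2 reads in fresh water, against 32 and 395 reads in seawater. Its log2 fold change was -2.40 (SE 0.80, limma adjusted p = 0.0367), and the call held in 6 of 17 alternatives, with adjusted p between 2.67e-05 and 0.867. This component lies below the level required by the naming rule, and it was named after its values were seen.

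The 2 members called higher in fresh water had groups that overlapped. The sum of comp242704_c0 was 1613 and 1149 RPKM in fresh water, against 5416 and 19.6 RPKM in seawater. Both fresh water values lay between the seawater values. Its fitted log2 fold change was 2.03 (SE 0.62, limma adjusted p = 0.0226), while its mean was 1381 RPKM in fresh water and 2718 RPKM in seawater. The sum of comp248630_c1 was 400 and 297 RPKM in fresh water, against 586 and 5.81 RPKM in seawater. Its fitted log2 fold change was 2.45 (SE 0.81, limma adjusted p = 0.034). The direction of both reversed without seawater library 2, to -1.99 in comp242704_c0 and -0.77 in comp248630_c1. It also reversed in edgeR, to -2.48 in comp242704_c0 and -1.21 in comp248630_c1.

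Without either fresh water library no member was called. With brackish water library 1 left out the count was 20 (18 higher, 2 lower), or 17.5% of members against 47.6% of all components. With its library 2 left out it was 23 (21 higher, 2 lower), or 20.2% against 47.6%. Without seawater library 1 all 5 calls were higher in fresh water (4.39%, against 0.737% of components). Without seawater library 2 there were 8 calls, 2 higher and 6 lower (7.02%, against 1.22%). Of the members not called, comp244245_c0 had 33.3 and 39.2 RPKM in fresh water, against 4.01 and 8.71 RPKM in seawater (log2 fold change 2.41, limma adjusted p = 0.083). Likewise comp244892_c0 had 19.5 and 23.2 RPKM in fresh water, against 4.64 and 6.47 RPKM in seawater (log2 fold change 1.78, limma adjusted p = 0.193).

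In the comparison of brackish water with seawater, 2 members were called, both lower in brackish water (1.75%). Among all components 0.237% were called, 0.158% higher and 0.0791% lower. An unadjusted p under 0.05 was found for 7 members (6.14%), against 7.58% of components. The groups did not overlap in 2 members that were higher in brackish water (1.75%, against 16.6%) and in 8 that were lower (7.02%, against 9.92%). The median log2 fold change was -0.24 over members and 0.20 over all components, and 38 members (33.3%) had a fold change above 0, against 60.1% of all components. The direction of the members' median turned on 1 library: it was -1.03 without brackish water library 1 and 0.47 without library 2, against -0.47 and 0.93 over all components.

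The sum of comp235490_c0 averaged 4789 ± 1240 RPKM in brackish water and 10064 ± 828 RPKM in seawater (SD, n = 2 each). It was lower in both brackish water libraries than in either seawater library, with a log2 fold change of -1.09 (SE 0.28, limma adjusted p = 0.0484). The call held in 2 of 18 alternatives, with adjusted p between 0.000503 and 1.0. In comp245281_c1, with 16 short forms of 212 to 598 bases, the sum was 3.20 and 522 RPKM in brackish water, against 5238 and 31.8 RPKM in seawater. These groups overlapped, and the fitted log2 fold change was -3.15 (SE 0.73, limma adjusted p = 0.0115). It reversed to 0.33 without brackish water library 1 and to 0.51 without seawater library 1. The count of calls was 0 without either fresh water library or with brackish water library 1 left out. With brackish water library 2 left out, 5 members were called, all higher in brackish water (4.39%, against 28.6% of components). Without seawater library 1 there were 3 calls, 2 higher and 1 lower (2.63%, against 0.119%). Without seawater library 2 there were 9 calls, 2 higher and 7 lower (7.89%, against 1.17%).

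Members whose groups did not overlap but that were not called include comp246898_c1, with 36.4 and 38.5 RPKM in brackish water, against 7.54 and 31.0 RPKM in seawater. In comp244519_c0 the sum was 56.4 and 37.6 RPKM in brackish water, against 27.1 and 21.5 RPKM in seawater. In comp244380_c2 it was 24.7 and 17.5 RPKM in brackish water, against 87.1 and 30.6 RPKM in seawater.

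Fresh water was also set against brackish water. Here 4 members were called (3.51%), all higher in fresh water, against 1.1% of all components, 0.856% higher and 0.247% lower. An unadjusted p under 0.05 was found for 6 members (5.26%), against 6.51% of components. The groups did not overlap in 59 members that were higher in fresh water (51.8%, against 33.9%) and in 2 that were lower (1.75%, against 3.5%). The fold change was above 0 in 108 members (94.7%), against 89.1% of components. The median log2 fold change was 0.92 over members and 0.75 over all components. After division by TMM factors it was -0.03 and 0.04, so little of the difference remained with that scaling.

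The largest of these was comp235064_c0, whose 10 forms are all 1799 to 2626 bases long. Its sum was 89.5 and 49.3 RPKM in fresh water, against 3.36 and 0.116 RPKM in brackish water. That corresponds to 5786 and 2470 reads in fresh water, against 267 and 9 reads in brackish water. The groups did not overlap, and the log2 fold change was 4.93 (SE 0.98, limma adjusted p = 0.000282). The call held in 5 of 18 alternatives, with adjusted p between 0.00104 and 1.0. In seawater the sum was 370 and 0.165 RPKM, the extremes of all 6 libraries apart from the lower brackish water value.

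In comp245281_c1 the sum was 624 and 608 RPKM in fresh water, against 3.20 and 522 RPKM in brackish water. The groups did not overlap, although the upper brackish water value was near those of fresh water (log2 fold change 3.72, SE 0.73, limma adjusted p = 0.000217). The direction reversed in edgeR, to -1.02, and in DESeq2, to -1.05. The limma value was 0.24 with brackish water library 1 left out (adjusted p = 0.942) and 7.20 with its library 2 left out (adjusted p = 0.853). The sum of comp245056_c2 was 3315 and 2512 RPKM in fresh water, against 2010 and 486 RPKM in brackish water. Its groups did not overlap (log2 fold change 1.54, SE 0.42, limma adjusted p = 0.0248), and the fold change was 0.42 after division by TMM factors. With brackish water library 1 left out the fold change was 2.57 (limma adjusted p = 0.0203), and with its library 2 left out 0.52 (limma adjusted p = 1.0), and the call held in 4 of 18 alternatives. It falls outside the naming rule and was named after its values were seen. In comp242704_c0 the sum was 1613 and 1149 RPKM in fresh water, against 25 and 1755 RPKM in brackish water, and the groups overlapped (log2 fold change 2.67, SE 0.62, limma adjusted p = 0.00375). It reversed to -0.37 without brackish water library 1 and to -1.58 in edgeR. The count of calls was 68 with brackish water library 1 left out, which is 59.6% of members against 60.9% of all components, and 0 when its library 2 was left out or without either fresh water library. Among members lower in fresh water, none was called, and comp247715_c0 had 10.5 and 9.52 RPKM in fresh water, against 11.2 and 12.5 RPKM in brackish water.

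Over the 3 comparisons, 8 members gave 11 calls, and the groups compared did not overlap in 7 of them. The 3 comparisons share libraries and are not independent of each other.

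The libraries of a group differed in these same members. The sums of 2 members (1.75%) were over 4-fold apart between the fresh water libraries, against 1.13% of 17920 components. Between the brackish water libraries 58 members (50.9%) were that far apart, against 62.5% of components. Of these, 51 were lower in library 2 and 7 were higher. Between the seawater libraries 22 members (19.3%) were over 4-fold apart, 11 in each direction, against 12.3% of components.

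A set of 8 members, picked after their values were seen, was over 5-fold higher in seawater library 1 than in seawater library 2. They were comp235064_c0, comp239661_c2, comp241270_c0, comp242704_c0, comp242854_c1, comp245281_c1, comp246856_c0 and comp248630_c1. Together they took 10% and 7.24% of member reads in fresh water, 2.19% and 14.7% in brackish water, and 45.8% and 1.25% in seawater. They include 4 of the 8 called members. In the other direction, 6 members were over 5-fold higher in seawater library 2. Of the 8, 5 were also 12.2-fold to 163-fold higher in brackish water library 2 than in its library 1. The ratio of those 2 libraries was 1.08 in comp241270_c0, 0.256 in comp248630_c1 and 0.0346 in comp235064_c0. In comp246856_c0 the sum was 1021 and 943 RPKM in fresh water, 114 and 1398 RPKM in brackish water, and 12966 and 193 RPKM in seawater.

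**Figure D1:**
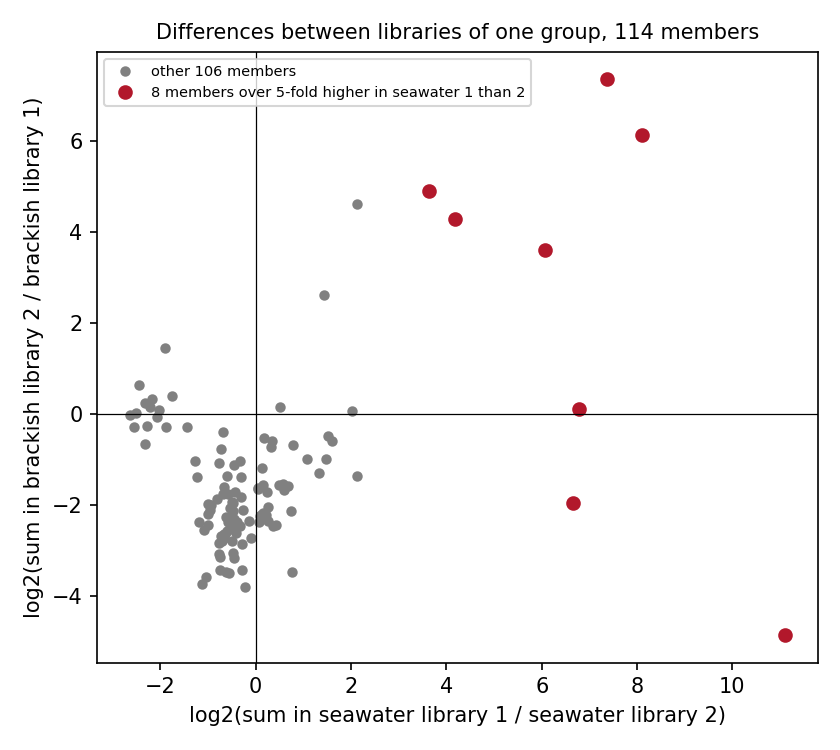
Each point is a member, placed by the log2 ratio of its sum in seawater library 1 over library 2 (horizontal) and in brackish water library 2 over library 1 (vertical). The 8 members over 5-fold higher in seawater library 1 are marked, and most members lie below 0 on the vertical axis, with 51 below -2.

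How reads were divided among the forms of a member was examined next. For each form, the ratio of its RPKM to that of the other forms of its component was tested, with 1 RPKM added to each. It was taken within a library, so that library scaling enters it only through this pseudocount. For forms near 1 RPKM the ratio therefore follows the level of the component as well as the share. Between fresh water and seawater the median log2 ratio difference over member forms was -0.231, and -0.0655 with a pseudocount of 0.1. Of 773 member forms tested, 0 were called in any of the 3 comparisons by limma, and of all 11977 forms tested 0% were called. An unadjusted p under 0.05 was found for 77 member forms (9.96%) between fresh water and seawater, 61 (7.89%) between brackish water and seawater and 25 (3.23%) between fresh water and brackish water. Over all forms these shares were 17.6%, 12.3% and 6.58%. Shares did not overlap between fresh water and seawater in 216 forms that were higher in fresh water (27.9%, against 26.5% of all forms) and in 232 that were lower (30.0%, against 29.1%). For brackish water against seawater the counts were 152 higher (19.7%, against 21.5%) and 197 lower (25.5%, against 23.2%). For fresh water against brackish water they were 162 higher (21.0%, against 19.6%) and 137 lower (17.7%, against 19.7%). The diffSplice test of limma also called 0, with 18, 11 and 5 member forms at an unadjusted p under 0.05.

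In comp244380_c2 the groups were separated in share. Its form seq7, of 1179 bases, took 34.9% and 40.6% of the component in fresh water, 46.7% and 60.8% in brackish water, and 81.3% and 82.6% in seawater. Both seawater shares were above the other 4, and both fresh water shares were below. The log2 ratio differed by -2.76 between fresh water and seawater (SE 0.30), which did not pass the test (limma adjusted p = 0.0829). In comp247715_c0, form seq15, of 627 bases, took 10.6% and 2.89% in fresh water, 12.3% and 73.2% in brackish water, and 59.3% and 57.7% in seawater. Its form seq12 took 22.3% and 32.0% in fresh water, 20.6% and 7.75% in brackish water, and 1.90% and 3.58% in seawater. Read numbers behind these shares were low: seq12 had 33 and 33 reads in fresh water, against 3 and 8 reads in seawater, and seq15 had 21 and 4 reads in fresh water, against 126 and 173 reads in seawater. The brackish water libraries fell on either side, library 1 near fresh water and library 2 near or past seawater, and neither form was called (limma adjusted p = 0.266 and 0.128).

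Form seq11 of comp240668_c0, of 1551 bases, took 21.9% and 12.4% in brackish water, against 0.96% and 1.47% in seawater, and in fresh water 14.9% and 18.2%. It had 470 and 55 reads in brackish water, against 7 and 20 reads in seawater. The log2 ratio differed by 2.54 (SE 0.23, limma adjusted p = 0.12), short of the threshold. In comp244245_c0, form seq14 took 31.7% and 52.7% in fresh water, 54.9% and 40.3% in brackish water, and 9.26% and 9.77% in seawater, where it had 5 and 23 reads. Form seq6 of the same component took 46.7% and 24.7% in fresh water, 21.0% and 20.1% in brackish water, and 51.2% and 47.8% in seawater. The 2 forms are of similar length, 816 and 798 bases. In comp244146_c0, form seq40, of 2035 bases, took 35.0% and 36.7% in fresh water, 18.9% and 1.98% in brackish water, and 2.73% and 0% in seawater.

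Other forms with large ratio differences also missed the threshold. In comp245295_c0, form seq9 took 11.6% and 68.8% in fresh water, against 5.52% and 1.31% in seawater (limma adjusted p = 0.238). Its form seq2 took 2.33% and 12.2% in fresh water, against 0.751% and 0.217% in seawater (limma adjusted p = 0.215). For brackish water against seawater, form seq6 of comp241904_c0 took 10.5% and 9.25% in brackish water, against 0% and 0.257% in seawater (limma adjusted p = 0.121). Form seq3 of comp245056_c2 took 3.03% and 1.02% in brackish water, against 28.6% and 14.4% in seawater (limma adjusted p = 0.268). Form seq11 of comp242854_c1 took 0% and 19.8% in brackish water, against 27.3% and 54.7% in seawater (limma adjusted p = 0.366). For fresh water against brackish water, form seq1 of comp246856_c0 took 37.5% and 35.0% in fresh water, against 0.16% and 20.8% in brackish water (limma adjusted p = 0.778). The adjusted p was 0.777 for seq25 of comp246856_c0, 0.773 for seq17 of comp245281_c1 and 0.774 for seq7 of comp235064_c0, all by limma.

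**Figure D2:**
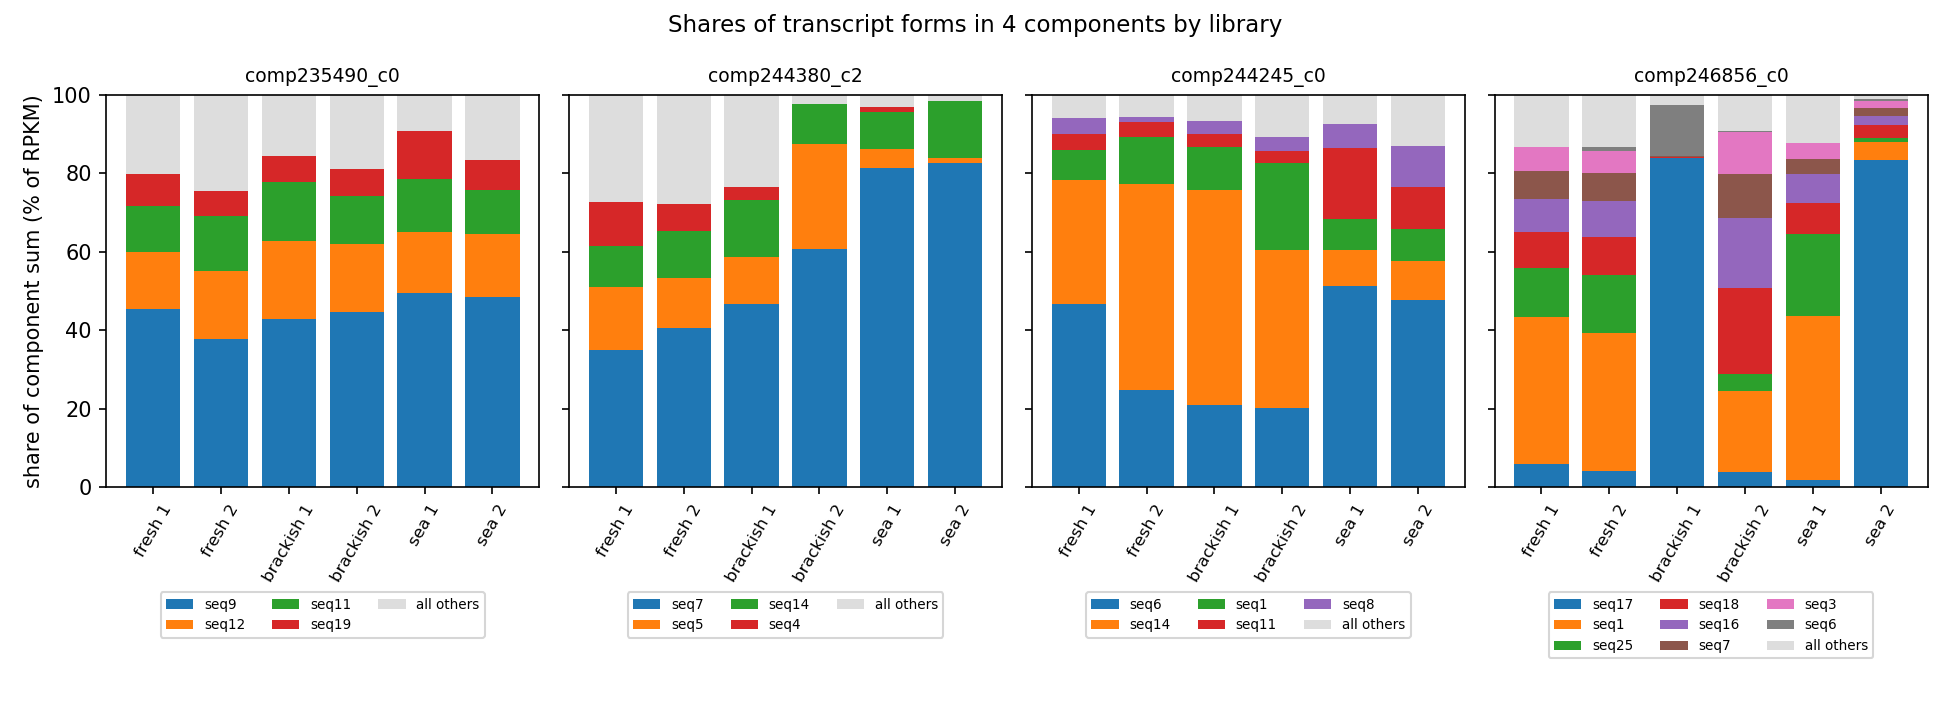
Share of each component's RPKM, in percent, taken by its main forms in the 6 libraries, with all other forms in light gray. In comp244380_c2, seq7 takes 81.3% and 82.6% in seawater, more than in any other library.

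The distance between 2 libraries in form use was taken as the share of a component's RPKM that would have to move between forms to make them alike. Over members, the 2 fresh water libraries had a median distance of 8.57%, the brackish water pair 13.6% and the seawater pair 10.7%. In components with 2 to 9 forms it was 5.2%, 8.42% and 7.45%. Between fresh water and seawater libraries the median ran from 11.8% to 16.5%, and between brackish water and seawater libraries from 12.9% to 17.3%. Fresh water libraries were 9.63% and 8.16% from brackish water library 1, and both were 13.2% from its library 2.

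Every distance between fresh water and seawater was above both distances within the groups in 24 members (21.1%), against 25% of components with 2 to 9 forms. Between brackish water and seawater this held for 21 members (18.4%), against 15%, and between fresh water and brackish water for 3 members (2.63%), against 9.08%. The widest gap was in comp247715_c0, with a lowest distance of 53.3% between fresh water and seawater and a highest distance of 16.7% within them. In comp244380_c2 these were 40.8% and 9.32%, and in comp244146_c0 33.4% and 5.75%.

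**Figure D3:**
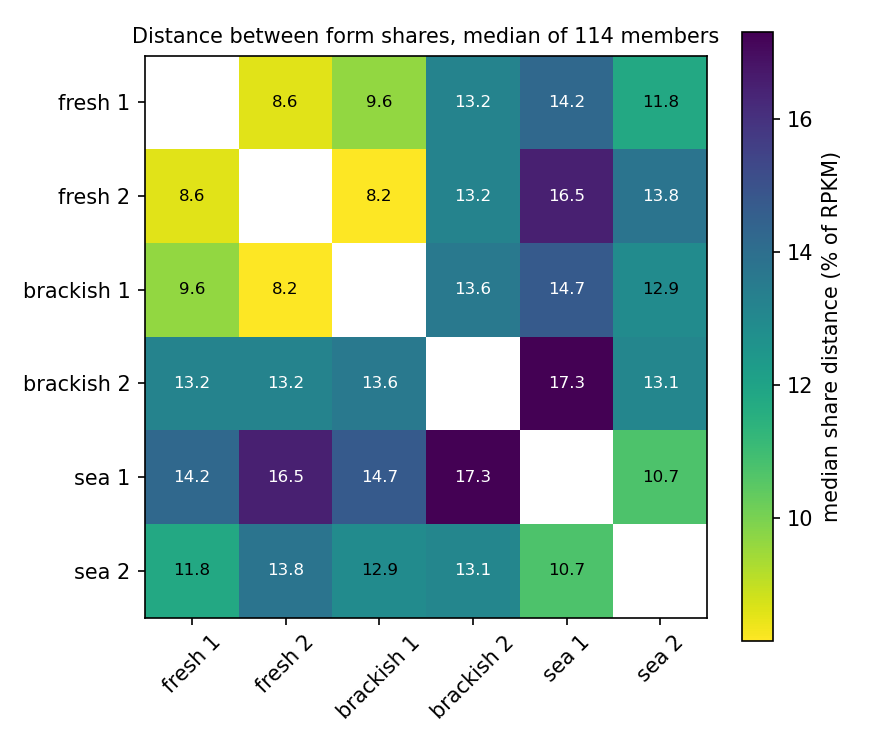
Median over the 114 members of the distance in form shares, in percent of RPKM, for each pair of libraries. The fresh water pair is at 8.57%, and brackish water library 2 against seawater library 1 is highest, at 17.3%.

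Most members had no dominant form. The leading form took a median share of 18.9% and 19.6% in fresh water, 18.6% and 20.5% in brackish water, and 20.1% and 20.4% in seawater. In 93 members it stayed under 50% in all 6 libraries. The other members reached 50% in some libraries only, such as comp244380_c2 with 34.9% and 40.6% in fresh water and 81.3% and 82.6% in seawater, apart from comp240871_c0. In comp240871_c0, with 15 forms, the leading form was above 50% throughout. It took 82.1% and 81.3% in fresh water, 81.4% and 87.3% in brackish water, and 89.7% and 88.9% in seawater.

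Evenness was summarised as the effective number of forms, the inverse of the summed squared shares. Its median was 8.55 and 8.05 in fresh water, 8.36 and 7.51 in brackish water, and 7.74 and 7.75 in seawater. As a percent of the forms listed it had a median of 66.5, from 9.21 in comp240871_c0 to 98.2 in comp249859_c0. By limma, 0 members were called in each comparison, against 1.25% of 5987 components between fresh water and seawater, 1.05% between brackish water and seawater and 0% between fresh water and brackish water. An unadjusted p under 0.05 was found for 15, 12 and 4 members (13.2%, 10.5% and 3.51%), against 17.5%, 14.4% and 7.25% of components.

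**Figure D4:**
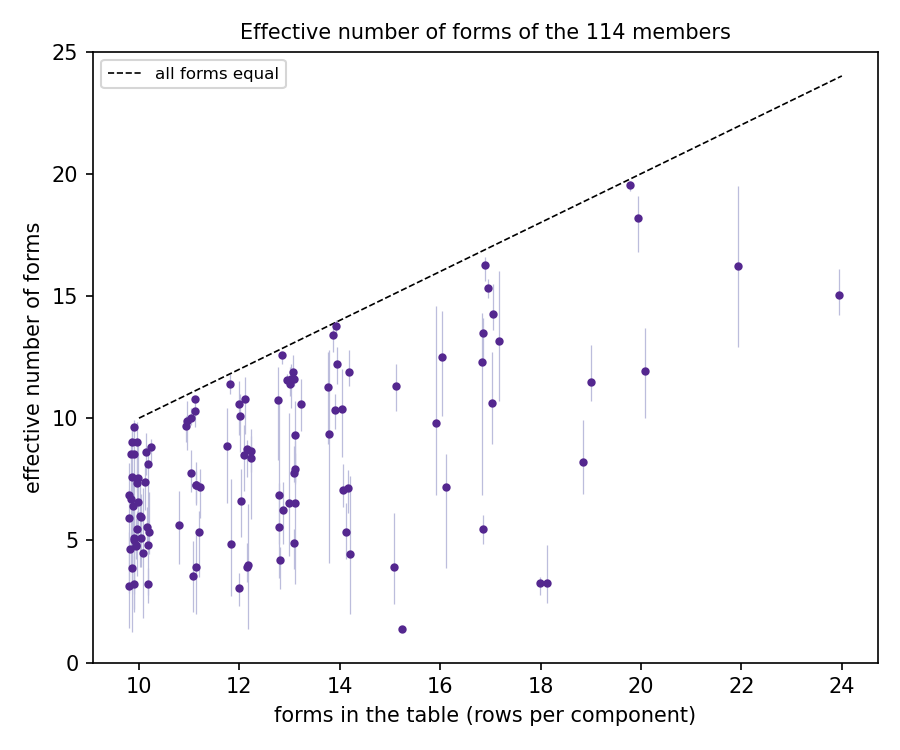
Effective number of forms of each member against its number of forms; points are means over the 6 libraries, bars run from the lowest to the highest library, and points are shifted sideways at random so that they do not overlap. The dashed line marks equal use of all forms, and comp240871_c0 lies lowest relative to it, at 9.21% of its forms.

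The leading form was the same in all 6 libraries in 25 members, while 35 had 2 leading forms, 25 had 3, 18 had 4, 7 had 5 and 4 had 6. It was the same in both libraries of fresh water in 74 members, of brackish water in 57 and of seawater in 53. Libraries with few reads enter these counts and the effective numbers. For example, comp235064_c0, with 5 leading forms, had 9 reads in brackish water library 2 and 11 in seawater library 2. Where forms are used nearly evenly, a few reads can also change the leading form, and how often this occurred was not tested. A leading form that was the same within each group and different between them was found in 6 members between fresh water and seawater (5.26%), against 7.88% of components. The count was 4 (3.51%) between brackish water and seawater, against 5.73%, and 6 (5.26%) between fresh water and brackish water, against 4.53%.

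The members with the most forms differed in how evenly their RPKM was spread over the forms. In comp249459_c0, with 24 forms of 264 to 6432 bases, the effective number was 14.4 and 14.7 in fresh water, 14.9 and 14.2 in brackish water, and 15.9 and 16.1 in seawater. In comp246565_c0, with 22 forms, it was 17.3 and 14.4 in fresh water, 12.9 and 14.0 in brackish water, and 19.3 and 19.5 in seawater. In comp247457_c2, with 20 forms, no form reached 10% and a different form led in each of the 6 libraries. Another 2 members, comp240397_c0 and comp246561_c1, also had 20 forms. Over the libraries their effective number ran from 9.99 to 13.7 in comp240397_c0 and from 19.3 to 19.7 in comp246561_c1.

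Longer forms had larger median shares, pooled over members. The median share was 2.3% for 226 forms of 201 to 500 bases, 4.88% for 231 forms of 501 to 1000 bases, 6.42% for 314 forms, 7.02% for 372 forms and 7.63% for the 319 forms of 4001 bases or more. Counted over members and libraries, the leading form fell in these 5 length classes 87, 110, 148, 184 and 155 times, which follows the class sizes more closely. Within members, Spearman's rho of length and share was above 0 in 89 of 114, with a median of 0.355, as a description across forms that share sequence.

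Some forms were present in 1 library of a group and had no read in the other. With at least 100 reads against 0, there were 2 such forms in fresh water (0.258% of 775), 16 in brackish water (2.01% of 798) and 6 in seawater (0.88% of 682). Over all transcripts these shares were 0.123%, 1.16% and 0.513%. In fresh water both were forms of comp245295_c0. In brackish water they came from 5 components and in seawater from 2, comp235064_c0 and comp242704_c0. Forms read in both libraries of 1 group and in no other library numbered 3 in fresh water, 1 in brackish water and 0 in seawater. These were 0.205%, 0.0684% and 0% of member forms, against 11.1%, 0.508% and 0.133% of all transcripts.

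In the authors' deposited table that sets fresh water against seawater, 195 member forms had a p-value under 0.05 and a log2 fold change beyond 1, 191 higher and 4 lower in fresh water. That table lists 55575 transcripts, of which 98.1% pass these limits, so it is mostly a selection. It lists 272 member forms, of which 71.7% pass. Counted over all forms, listed or not, the shares were 13.3% of member forms and 15.9% of all transcripts. In the authors' deposited table for brackish water, 4 member forms passed (0.274%, against 1.07% of all transcripts), 1 higher and 3 lower in brackish water.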

How the data were processed

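The deposited table gives RPKM values per transcript and library, made by the authors, with transcript length in bases. No source used here names the transcript assembler or read mapper. Tables of comparisons that the authors deposited give a mean read count over 2 libraries, treated as an estimated count, a p-value and a log2 fold change. Whole reads were recovered from RPKM and length (tolerance 0.1). RPKM was summed over the forms of each component. Sums averaging at least 1 RPKM were fitted with limma (trend) on log2(sum + 1). Form ratios were fitted likewise as log2((form + 1) / (other forms + 1)), where form and component both averaged at least 1 RPKM. The effective number was fitted as its log2 with no pseudocount, for components averaging at least 1 RPKM with a sum above 0 in every library. Each fit held all 6 libraries, with 3 residual degrees of freedom, and was adjusted by Benjamini-Hochberg at 0.05. The prior degrees of freedom for sums were infinite, so a component's own spread did not enter its test. Fold changes of sums on the log2(sum + 1) scale understate changes of low components. edgeR and DESeq2 on recovered reads were alternatives.

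The members and lists were chosen with earlier results of these data known. Named members were the 3 with most forms (the third tied with 2 others), the 3 highest, and per comparison and direction up to 2 components and 2 forms with the largest change, groups apart and a mean of at least 5 RPKM, called ones first. Any other member named was chosen after its values were seen. The deposited table of all 3 groups together was not used. Depth was 16500257 to 37027007 reads. Software was R 4.3.3, limma 3.58.1, edgeR 4.0.16, DESeq2 1.42.0, Python 3.11.15 and pandas 2.3.3. The scripts were tested on simulated data.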

Additional observations from a re-analysis of the deposited data

How the results depend on the processing

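Counts of member sums called moved with nearly every choice. Between fresh water and seawater the count of 5 was 2 (both lower in fresh water, 1.75% of members against 9.42% of components) with a pseudocount of 0.1. It was 13 (all lower, 11.4% against 29.7%) with DESeq2 and 22 (21 higher, 1 lower, 19.3% against 47.5%) with the compared groups alone. DESeq2 called 3 of the original 5 and the compared groups alone 1. The count was 0 with a filter of 5 RPKM (against 0.0383% of components) and with no filter (0%). It was also 0 with RPKM divided by TMM factors (3.57%), with quantile normalization (3.15%) and with edgeR (3.88%). With edgeR, 15 members had an unadjusted p under 0.05. Leaving out 1 library gave 0 to 23. Between brackish water and seawater DESeq2 called 2 members (1.75%, against 15.0% of components), neither of them among the original 2, and the count was 0 in all those other settings, and 0 to 9 with 1 library left out. Between fresh water and brackish water the count of 4 was 1 with a pseudocount of 0.1, 4 with the compared groups alone and 0 in the others, and 0 to 68 with 1 library left out. DESeq2 called 1 other member (0.877%, against 1.56% of components), lower in fresh water, and none of the original 4. Here the pseudocount of 0.1 gave 0.877% of members against 0.376% of components, and the compared groups alone 3.51% against 0.48%. The filter settings, TMM factors, quantile normalization and edgeR called 0% of components here. Between brackish water and seawater, 0.178% of components were called with the pseudocount of 0.1, 1.68% with TMM factors and 0.0643% with the compared groups alone. Chosen after seeing the data, a robust limma prior gave 2, 0 and 0, and limma without its trend and limma voom gave 0 in all 3 comparisons. Over all components the robust prior called 11.3%, 0.168% and 0.762%, limma without its trend 5.55%, 0.0297% and 0.292%, and limma voom 0% in each. The cause was not tested.

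Some sums reversed. In comp242704_c0 the log2 fold change in fresh water relative to seawater was -2.48 with edgeR, -2.59 with DESeq2 and -1.99 to 6.05 with 1 library left out. Relative to brackish water it was -1.58 with edgeR, -1.61 with DESeq2 and -0.37 to 5.71 with 1 library left out. In comp248630_c1 it was -1.21 with edgeR, -1.32 with DESeq2 and -0.77 to 5.66 with 1 library left out, relative to seawater. In comp245281_c1 brackish water relative to seawater gave -6.81 to 0.51 with 1 library left out, with 0.33 when that was brackish water library 1, and -1.02 with edgeR and -1.05 with DESeq2 in fresh water relative to brackish water.

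Form shares gave 1, 1 and 0 calls with a pseudocount of 0.1, against 34, 37 and 0 of all 11977 forms. The effective number gave 1, 1 and 0 calls with reads thinned to the shallowest library, against 100, 61 and 7 of 5908 components.

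Library numbers did not pair the samples: deviations of same-numbered libraries correlated at -0.397, 0.253 and -0.431 for sums. With the number as a replicate block, 0, 0 and 3 sums were called (2.63% for the 3), against 1.53%, 0.089% and 0.42% of components. That block gave 0 form shares and 0 effective numbers. Depth limits forms with few reads.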
